A study of Rattus with 6 samples.

Results

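The 10 genes described here encode ATF4, its relatives ATF3 and ATF5, the stress factor CHOP (gene Ddit3), and 6 genes that ATF4 and CHOP are known to control: Asns, Phgdh, Psat1, Trib3, Chac1 and Sesn2. They were taken by symbol from the deposited table of read counts, and all 10 of them are among its 20742 genes. All 10 passed the filter on low counts, which kept 12882 genes. The table holds 6 libraries of polyadenylated RNA from H9C2 cells, a rat cell line derived from embryonic heart. In 3 libraries the cells carried a control plasmid and in 3 a plasmid for overexpression of RBM25, which binds RNA and takes part in splice site choice together with the U1 snRNP. All groups are the same cell line, and the time after plasmid delivery, the share of cells that took up a plasmid and the culture behind each library are not stated by the labels. The study asked which genes change when RBM25 is raised.

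In the integrated stress response, 4 kinases that sense different stresses phosphorylate the translation initiation factor eIF2, which slows most protein synthesis while the ATF4 mRNA is translated more efficiently. ATF4 then pairs with other basic leucine zipper (bZIP) proteins and switches on genes for amino-acid supply, and, when stress lasts, CHOP and its targets. In heart muscle the response is known from loss of blood supply and from mitochondrial disease. Because ATF4 is controlled largely at translation, the level of its mRNA is not a measure of ATF4 protein. Protein was not among the data analysed here.

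Libraries held 25543849 to 33130256 counted reads. Rbm25 lay between 44.5 and 49.2 CPM (counts scaled to library depth) with the control plasmid and between 55.9 and 60.1 CPM with the RBM25 plasmid, a log2 fold change of 0.30 ± 0.047 (SE, with an adjusted p by edgeR of 0.0011). The level counted for Rbm25 therefore rose by 23.5% of its control level. Whether reads from the plasmid were all counted to this gene was not tested. The rise did not pass when control replicate 2 was left out (0.28, edgeR adjusted p = 0.0842) or in limma-trend on FPKM (adjusted p = 0.236). All 8 listed muscle markers had reads in every library. Over the 6 libraries together these ran from 162 for Actc1 and 300 for Cacna1s to 10876 for Myod1 and 60615 for Casq2. Among the mature heart markers Pln had 385 reads in all 6 libraries together, more than Actc1 and Cacna1s. The rest were lower: Myh6 had 70, Actn2 18, Tnni3 7 and Ryr2 1, and Nppa was not among the genes of the table used here. Fibroblast markers were abundant, with a sum of 27116 to 29320 CPM and Col1a1 at 12217 to 13589 CPM, while Pdgfra had 5 reads in all. Endothelial markers summed to 0.627 to 0.884 CPM over the libraries, and the listed leukocyte markers to 5.36 to 6.53 CPM, mostly Cd3e; the epithelial sum of 25.0 to 29.8 CPM was almost all Krt8. RBM25 replicate 3 was the library least like its group. Compared over all tested genes, it gave a chi-square statistic of 6.23 against RBM25 replicate 1 and of 4.80 against replicate 2 (each divided by its degrees of freedom), where replicates 1 and 2 gave 3.22 and pairs of controls 3.37 to 3.47. Results that rest on it are given with and without it.

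H9C2 cells with the control plasmid expressed these genes at very different levels. On the FPKM scale, which divides by gene length, Atf4 was the most abundant of the 10 in controls at 284 ± 2.40 FPKM (SD, n = 3), above 97.8% of the genes tested. Atf5, a bZIP factor that is likewise controlled at translation, followed at 252 ± 8.92 FPKM. Psat1 and Phgdh, enzymes of serine synthesis, stood at 235 ± 2.26 and 183 ± 3.40 FPKM, and Asns, asparagine synthetase, at 81.1 ± 2.88 FPKM (SD, n = 3 each). The 4 stress effectors were lower: Ddit3 at 33.6 ± 1.03, Chac1 at 29.6 ± 0.657, Trib3 at 25.0 ± 1.76 and Sesn2 at 22.2 ± 0.310 FPKM (SD, n = 3 each). Atf3, a stress-induced bZIP repressor, was far below the rest at 3.03 ± 0.255 FPKM (SD, n = 3), above 38.3% of the genes tested. No gene overlapped its neighbour in this order among the 3 controls, and the order was the same in all 6 libraries.

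**Figure D1:**
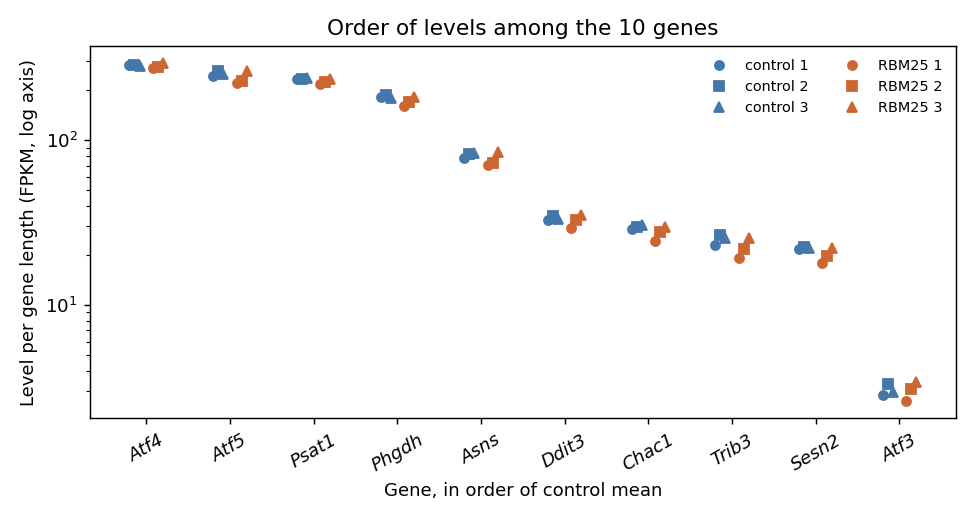
Level per gene length (FPKM, log axis) of the 10 genes in each library, with control libraries in blue and RBM25 libraries in orange. The order from Atf4 (control mean 284 FPKM) to Atf3 (3.03 FPKM) is the same in all 6 libraries.

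With RBM25 overexpression none of the 10 genes changed past the threshold, an adjusted p under 0.05 over all 12882 genes (edgeR quasi-likelihood test). DESeq2 and limma-trend on FPKM values called 0 of them too. Over all genes, edgeR called 0.404% in either direction, 0.357% higher and 0.0466% lower, and DESeq2 called 0.318%. At an unadjusted p under 0.05 there were 4 of the 10 by edgeR, all lower, where 4.78% of all genes were lower at that level; DESeq2 also gave 4, and limma-trend gave 0. The 10 log2 fold changes were all negative, from -0.18 to -0.0044 with a median of -0.092, beside a median of -0.0021 over all genes, of which 51.2% were negative. Groups did not overlap for 1 of the 10, Psat1, against 7.94% of all genes in that direction. These summaries depended on single libraries: without RBM25 replicate 3, edgeR called 6 of the 10 genes lower, beside 1.19% of all genes, and without RBM25 replicate 1 the median was -0.049 and 7 of the 10 were negative, beside 50.4% of all genes.

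Among the transcription factors, Atf4 was at 529.6, 525 and 519.7 CPM in control replicates 1, 2 and 3, and at 506, 516 and 539 CPM in RBM25 replicates 1, 2 and 3. The highest and the lowest library were both RBM25 libraries, and the controls lay between them. Its log2 fold change was -0.013 ± 0.030 (SE, with an adjusted p by edgeR of 0.913), with a 95% interval for the change of -5.10% to 3.47%. Atf5 stood at 509, 547 and 529 CPM in controls and at 468, 480.4 and 544 CPM in RBM25 libraries. RBM25 replicates 1 and 2 were below every control, and RBM25 replicate 3 was within their range. The log2 fold change of Atf5 was -0.088 ± 0.053 (SE, with an adjusted p by edgeR of 0.593).

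Ddit3, whose product CHOP promotes cell death under lasting stress, was at 38.0, 40.2 and 38.1 CPM in controls and at 34.0, 37.9 and 40.2 CPM with RBM25. RBM25 replicate 1 was the lowest library, while replicate 3 matched the highest control (log2 fold change -0.055 ± 0.056 SE, edgeR adjusted p = 0.765). Atf3 had 155 to 212 reads per library and was at 6.08, 7.14 and 6.34 CPM in controls and at 5.61, 6.70 and 7.30 CPM with RBM25. For Atf3, RBM25 replicate 1 was below every control, replicate 3 was above every control and replicate 2 was within their range. Its 95% interval, from -15.2% to 17.2%, spans zero widely. Its log2 fold change was -0.0044 ± 0.11 (SE, with an adjusted p by edgeR of 0.994).

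**Figure D2:**
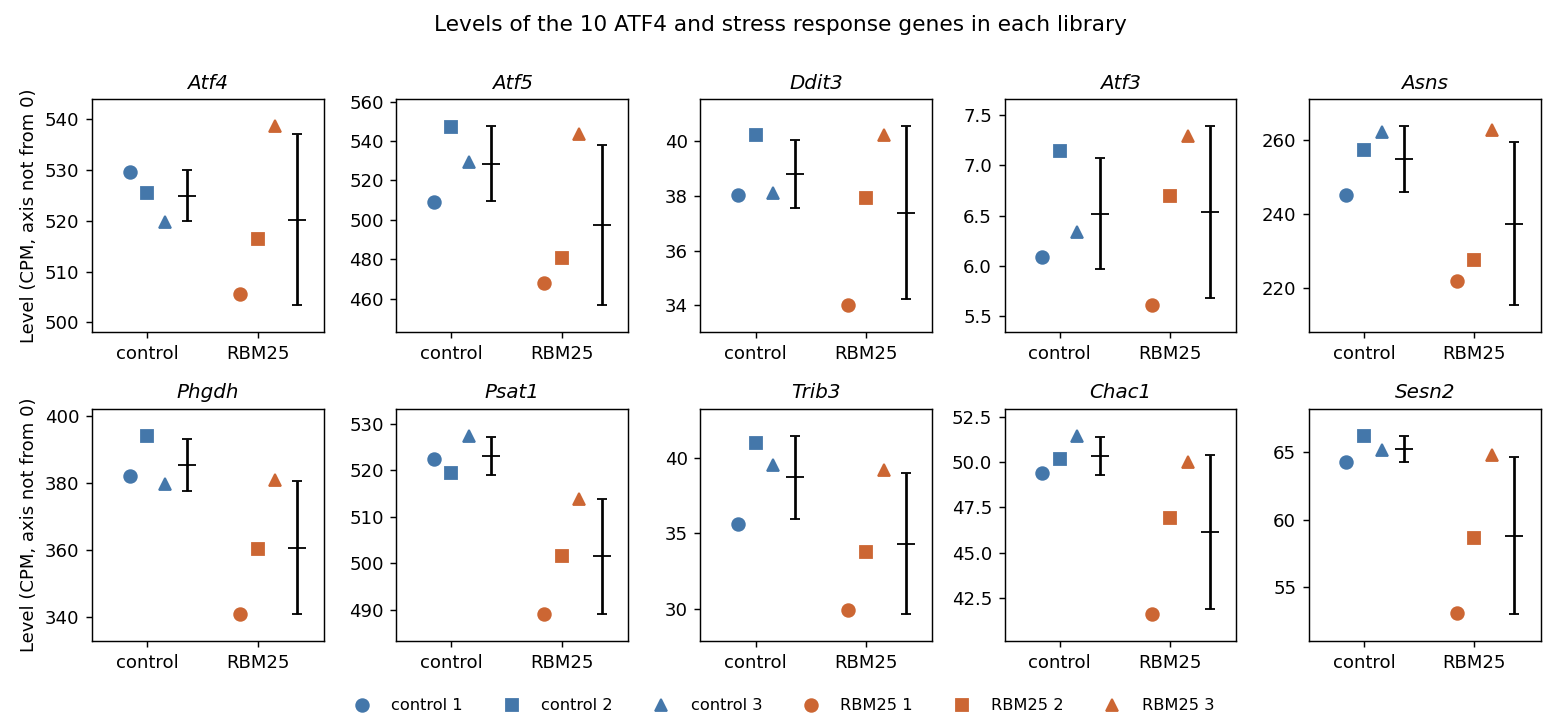
Levels of the 10 genes (CPM scaled by TMM factors, axes not from 0) in each library, with control libraries in blue, RBM25 libraries in orange and the mean ± SD of 3 libraries in black. In every panel RBM25 replicate 1 is the lowest of all 6 libraries and RBM25 replicate 3 is the highest of its group.

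The 3 amino-acid enzymes had small negative fold changes. Phgdh, which catalyses the first step of serine synthesis, was at 382, 394 and 379 CPM in controls and at 341, 360.0 and 381 CPM with RBM25. RBM25 replicates 1 and 2 were below every control and replicate 3 was above 1 of them (log2 fold change -0.095 ± 0.035 SE, unadjusted p = 0.0120, edgeR adjusted p = 0.281). Psat1, the next enzyme of that pathway, was at 523, 519 and 527 CPM in controls and at 489, 502 and 514 CPM with RBM25. All 3 RBM25 libraries were below all controls, by a mean of 4.14%, and its log2 fold change was -0.061 ± 0.030 (SE; unadjusted p = 0.0492, edgeR adjusted p = 0.445). Asns, which makes asparagine, was at 245, 257 and 262 CPM in controls and at 222, 228 and 263 CPM with RBM25. RBM25 replicate 3 was level with the highest control and replicates 1 and 2 were below every control, so that the log2 fold change was -0.10 ± 0.060 (SE, with an adjusted p by edgeR of 0.58).

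The feedback and stress effectors had the larger differences of the 10 genes, and also passed no threshold. Trib3, a pseudokinase that inhibits ATF4 and CHOP, was at 35.6, 41.0 and 39.5 CPM in controls and at 29.9, 33.8 and 39.2 CPM with RBM25. Controls themselves ranged widely for this gene, with a coefficient of variation of 7.10%, and RBM25 libraries more widely, at 13.6%. Its biological coefficient of variation, which the fit estimates over both groups, was 7.48% against a trend of 3.99% for genes of its level. Its log2 fold change was -0.18 ± 0.092 (SE, with an adjusted p by edgeR of 0.52), with a 95% interval for the change of -23.6% to 1.99%.

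Chac1, an enzyme that breaks down glutathione, was at 49.4, 50.2 and 51.5 CPM in controls and at 41.6, 46.9 and 50.0 CPM with RBM25. Sesn2, a sestrin that restrains mTORC1 when leucine is scarce, was at 64.3, 66.2 and 65.1 CPM in controls and at 53.1, 58.6 and 64.7 CPM with RBM25. For both genes the controls lay close together, RBM25 replicates 1 and 2 were below all of them, and replicate 3 was within their range. The log2 fold change was -0.13 ± 0.054 for Chac1 (SE; unadjusted p = 0.0264, edgeR adjusted p = 0.36) and -0.15 ± 0.055 for Sesn2 (SE; unadjusted p = 0.0130, edgeR adjusted p = 0.287). Without a filter on low counts Sesn2 passed the threshold (log2 fold change -0.15, edgeR adjusted p = 0.0469).

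The 10 genes shared an order of the RBM25 libraries, which was noticed after their values were seen and is given as a description. In 10 of 10 genes RBM25 replicate 1 was the lowest and replicate 3 the highest of the 3 RBM25 libraries, an order held by 20.6% of all genes tested. RBM25 replicate 1 was below every control for all 10 genes, RBM25 replicate 2 for 9 and RBM25 replicate 3 for 1, where the share over all genes was 28.3%, 27.3% and 29.3%. The mean log2 difference of the 10 genes from their control means was -0.20, -0.092 and 0.030 in RBM25 replicates 1, 2 and 3, and -0.040, 0.038 and 0.0022 in control replicates 1, 2 and 3. Relative to the control mean, RBM25 replicate 1 was lowest for Trib3, at -22.6%, and nearest for Atf4, at -3.68%. RBM25 replicate 3 lay between -1.77% (Psat1) and 11.9% (Atf3).

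The spread among RBM25 libraries was therefore larger than that among controls for each of the 10 genes. The coefficient of variation was larger in the RBM25 group for 10 of 10 genes, with a median of 8.82% against 2.65% in controls. Over all genes tested it was larger in the RBM25 group for 53.1%, with medians of 5.06% and 4.64%. Together the 10 genes took 0.238% to 0.244% of the counted reads in controls, and 0.218%, 0.227% and 0.247% in RBM25 replicates 1, 2 and 3.

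**Figure D3:**
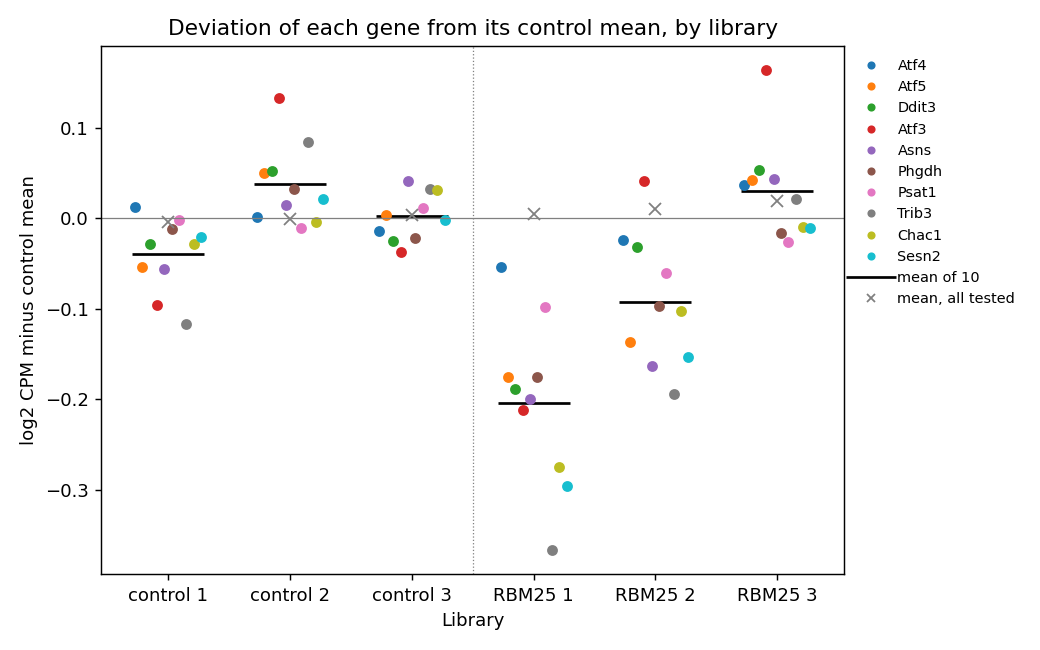
Difference of log2 CPM from the control mean for each of the 10 genes in each library, with their mean as a black bar and the mean of all tested genes as a grey cross. The bar stands at -0.20, -0.092 and 0.030 in RBM25 replicates 1, 2 and 3.

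Other measures also differed between RBM25 replicate 3 and the remaining RBM25 libraries. The troponin gene Tnnt2 was at 137 CPM there, against 94.0 and 94.5 CPM in RBM25 replicates 1 and 2 and 101 to 112 CPM in controls. Myog, a factor of muscle differentiation, was at 25.6 CPM there, against 14.6 and 14.9 CPM in RBM25 replicates 1 and 2 and 20.3 to 22.7 CPM in controls. Acta1, Actc1 and Cacna1s were also highest there of the 6 libraries, at 12.2, 1.50 and 2.32 CPM. The muscle factor Myod1 went the other way, at 54.6 CPM there, the lowest of the 6 libraries. Of all genes tested, 18.9% were highest and 20.0% lowest in RBM25 replicate 3. Myod1 was at 68.4 and 61.6 CPM in RBM25 replicates 1 and 2 and at 58.8 to 61.5 CPM in controls. Casq2 was at 355 CPM there, against 353 and 350.3 CPM in RBM25 replicates 1 and 2 and 324 to 334 CPM in controls. Des lay between RBM25 replicates 1 and 2. The 8 muscle markers summed to 529 to 549 CPM in controls and 542 to 598 CPM with RBM25. The 10 listed interferon-inducible genes had a mean log2 difference from controls of 1.33, 0.81 and 1.65 in RBM25 replicates 1, 2 and 3. Depth was 33130256, 31684179 and 27661354 reads in the same libraries. The part of these differences in the order of the 10 genes was not tested. In bulk RNA, fewer cells in a state and less RNA per cell cannot be told apart.

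Leaving out 1 library at a time changed the result for these genes in the case of RBM25 replicate 3. Without it, edgeR called 6 of the 10 lower, where 1.19% of all genes were called lower. At an unadjusted p under 0.05 there were 7 of the 10, all lower, where 7.05% of all genes were, and all 10 were negative, as were 50.2% of all genes. Trib3 then stood at -0.28 ± 0.060 and Sesn2 at -0.22 ± 0.044 (log2 fold change ± SE, with an adjusted p by edgeR of 0.00202 and 7.02e-04). Chac1 was at -0.19 ± 0.050, Asns at -0.18 ± 0.034, Atf5 at -0.16 ± 0.031 and Phgdh at -0.14 ± 0.032 (log2 fold change ± SE, with an adjusted p by edgeR of 0.0211, 3.44e-04, 7.02e-04 and 0.0060). Atf4, Ddit3, Atf3 and Psat1 were not called, at -0.039, -0.11, -0.087 and -0.079 (edgeR adjusted p = 0.586, 0.34, 0.803 and 0.145). The median of the 10 was -0.15, beside -6.32e-04 over all genes. In each of the 5 other fits that left out 1 library, none of the 10 was called, and 0 to 4 of them had an unadjusted p under 0.05. The fit without RBM25 replicate 3 rests on 2 RBM25 libraries, and whether the third library is the exception or the other two are cannot be told apart in this design.

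**Figure D4:**
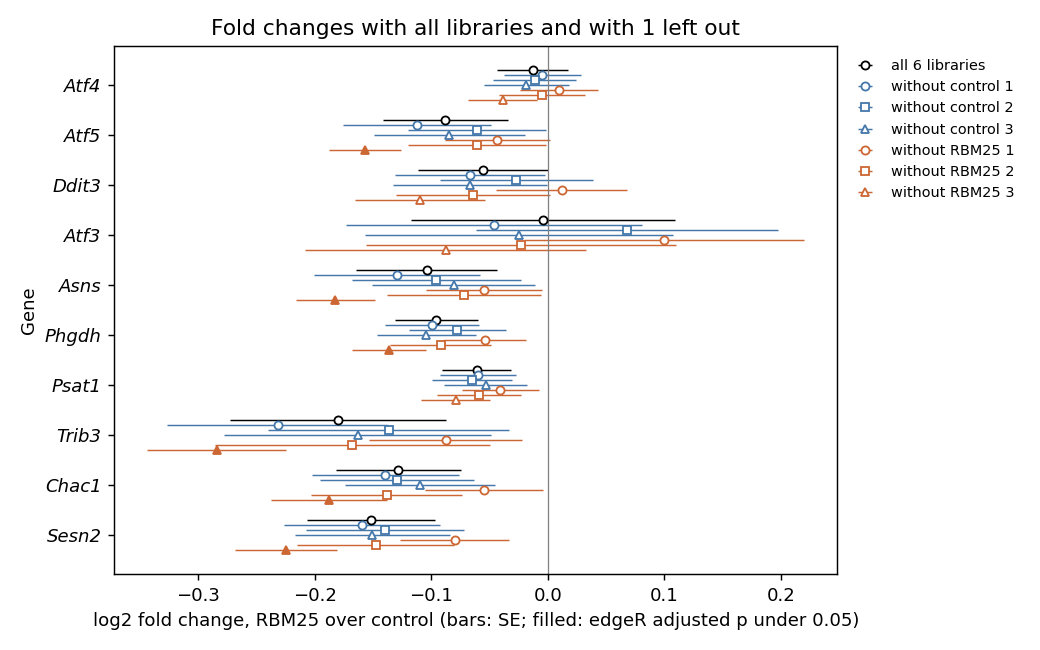
Log2 fold change (RBM25 over control) of each of the 10 genes with its SE, from the fit of all 6 libraries and from the 6 fits that leave out 1 library, with filled symbols for an edgeR adjusted p under 0.05. Filled symbols appear in the fit without RBM25 replicate 3, for 6 of the 10 genes.

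The inputs of the pathway were compared next. The 4 eIF2 kinases are HRI (Eif2ak1), PKR (Eif2ak2), PERK (Eif2ak3) and GCN2 (Eif2ak4). Eif2ak2, which senses double-stranded RNA and is itself interferon-inducible, was at 68.2, 66.3 and 65.6 CPM in controls and rose to 77.2, 74.2 and 83.6 CPM with RBM25. All RBM25 libraries were above all controls, and its log2 fold change reached 0.23 ± 0.042 (SE, with an adjusted p by edgeR of 0.00729). The call was lost without control replicate 2 or 3 (edgeR adjusted p = 0.162 and 0.0871) and in the 3 limma-trend fits on FPKM (adjusted p = 0.361 to 0.531), and its direction held in every fit that left out 1 library, at 0.18 to 0.27. Eif2ak1, Eif2ak3 and Eif2ak4, given to complete the 4 kinases, did not pass, with log2 fold changes of 0.027, -0.056 and 0.018 (edgeR adjusted p = 0.806, 0.834 and 0.948). In the list of kinases and their regulators 1 of 10 genes rose and 9 did not pass, where 0.357% of all genes were called higher. Dele1, which relays mitochondrial stress to HRI, had the next smallest p (log2 fold change -0.087 ± 0.047 SE, edgeR adjusted p = 0.512).

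Of 8 subunits of eIF2 and its exchange factor eIF2B, 1 fell and 7 did not pass, where 0.0466% of all genes were called lower. Eif2b2, the beta subunit of eIF2B, went from 133, 136 and 127 CPM in controls to 119.9, 118 and 119 CPM with RBM25, and the groups did not overlap. Its log2 fold change was -0.15 ± 0.033 (SE, with an adjusted p by edgeR of 0.0399). The call was lost in 5 of the 6 fits that left out 1 library (edgeR adjusted p = 0.0525 to 0.402, all but the fit without RBM25 replicate 3) with DESeq2 (adjusted p = 0.0723) and in the 3 limma-trend fits on FPKM (adjusted p = 0.342 to 0.481). Eif2s1, the subunit that the kinases phosphorylate, had a log2 fold change of 0.070 ± 0.034 (SE, with an adjusted p by edgeR of 0.443).

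None of the tested genes in the 5 remaining pathway lists passed the threshold with all 6 libraries. These comprised 6 bZIP partners and feedback genes, 8 amino-acid transporters, 10 enzymes of serine, one-carbon, proline and sulfur amino-acid metabolism, 13 genes of cytosolic tRNA supply (12 tRNA synthetases and the tRNA exporter Xpot) and 7 secreted and death-related outputs. By edgeR, 1 gene in each of these 5 lists had an unadjusted p under 0.05, each lower: Cebpb, a bZIP partner of ATF4 (log2 fold change -0.077), the neutral amino-acid transporter Slc1a4 (-0.11), the proline synthesis enzyme Aldh18a1 (-0.077), the isoleucyl-tRNA synthetase Iars1 (-0.10) and the autophagy receptor Sqstm1 (-0.079). Their edgeR adjusted p was 0.377, 0.327, 0.343, 0.231 and 0.364. Of all genes tested, 4.78% were lower at an unadjusted p under 0.05 by edgeR. The cystine transporter Slc7a11 had a positive log2 fold change of 0.098 (edgeR adjusted p = 0.492), as did the lipoprotein receptor Vldlr (0.069, edgeR adjusted p = 0.499). Values for the other genes named by the rule were -0.16 for Ddit4, an mTORC1 inhibitor, -0.067 for the mitochondrial serine enzyme Shmt2 and -0.053 for the glycyl-tRNA synthetase Gars (log2 fold change; edgeR adjusted p = 0.602, 0.483 and 0.545).

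Fold changes in these lists were mostly negative and small. They were negative for 5 of 6 bZIP and feedback genes, 6 of 8 transporters, 10 of 10 amino-acid enzymes, 12 of 13 tRNA genes and 4 of 7 outputs, with medians of -0.049, -0.070, -0.070, -0.036 and -0.024. Over all 7 pathway lists, 45 of 62 tested genes were negative and the median was -0.047, beside -0.0021 over all genes. RBM25 replicate 1 was the lowest and replicate 3 the highest of its group for 39 of the 62, among them 9 of the 10 amino-acid enzymes and 11 of the 13 tRNA genes, beside 20.6% of all genes. Without RBM25 replicate 3, 11 of the 62 were called lower and 1 higher, where 1.19% and 1.5% of all genes were. Called lower there were Slc7a5, Slc3a2, Slc1a5 and Slc6a9 among transporters, Psph, Shmt2, Pycr1 and Cth among enzymes, and Iars1, Sqstm1 and Eif2b2. These names were read off after the values were seen; the largest of these falls was that of the proline enzyme Pycr1 (-0.27 ± 0.062 SE on the log2 scale, edgeR adjusted p = 0.0088).

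**Figure D5:**
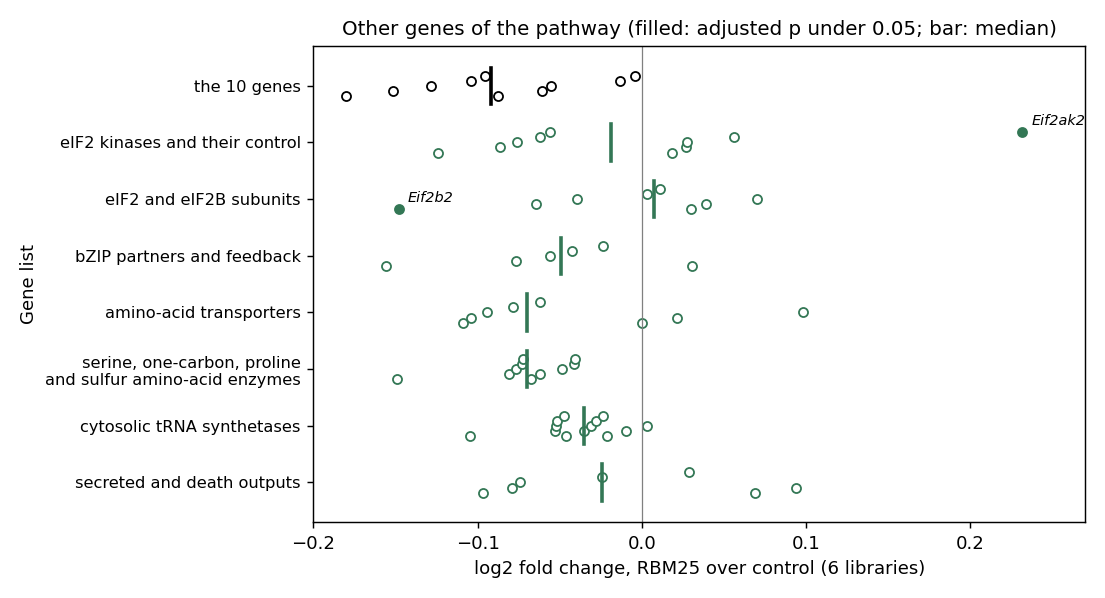
Log2 fold change (RBM25 over control, all 6 libraries) of the 10 genes and of the tested genes in 7 lists of the pathway, with each list's median as a bar and filled circles for an edgeR adjusted p under 0.05. Eif2ak2 (0.23) and Eif2b2 (-0.15) are the filled circles.

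Family relatives of the 10 genes were compared to show how far the small downward values extended. Of 9 relatives (Trib1, Trib2, Chac2, Sesn1, Sesn3, Atf1, Atf2, Atf6 and Atf7) none passed by edgeR, none had an unadjusted p under 0.05, and 6 were negative, with a median log2 fold change of -0.022. Sesn1, a sestrin under p53 control, stood at -0.15 ± 0.096 and Sesn3, named after its values were seen, at -0.094 ± 0.060 (log2 fold change ± SE, with an adjusted p by edgeR of 0.585 and 0.594). The CREB relative Atf1 was at 0.089 ± 0.044 (SE, with an adjusted p by edgeR of 0.465). Without RBM25 replicate 3 none of the 9 was called either, and 6 were negative. Trib1 then stood at -0.28, Sesn1 at -0.25 and Sesn3 at -0.14, while Atf1 was at 0.13 (log2 fold change). Their unadjusted p by edgeR was 0.0364, 0.0133, 0.0122 and 0.00313. RBM25 replicate 1 was the lowest and replicate 3 the highest of its group for 4 of the 9, beside 20.6% of all genes. The difference between the 10 genes and their relatives was not tested.

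Interferon-inducible genes, listed with earlier results of these data known, had larger differences in the same libraries. Both groups carried a plasmid, and the cause of these differences was not tested. Of 10 listed, 5 rose past the threshold (Mx1, Ifit1, Oasl, Oas1b and Cxcl10) and 5 did not pass, where 0.357% of all genes were called higher. The median log2 fold change of the 10 was 1.32, and all 10 were positive. In limma-trend on log2(FPKM + 0.1), Ifit1, Oasl, Oas1b and Cxcl10 did not pass (adjusted p = 0.220 to 0.236), and Mx1 was below the FPKM filter. The 5 had few reads in controls, from 1 to 4 per library for Mx1 to 29 to 57 for Oas1b. The antiviral gene Ifit1 went from 0.679 ± 0.0592 to 2.16 ± 0.696 CPM (SD, n = 3 each; log2 fold change 1.65 ± 0.26 SE, edgeR adjusted p = 0.00144). Without RBM25 replicate 3, 7 of the 10 were called higher, among them the same 5, where 1.5% of all genes were, and the median was 1.18. Isg15, which did not pass either way, went from 1.22 to 0.73 (log2 fold change; edgeR adjusted p = 0.347 and 0.135). None of these 10 genes had the order of RBM25 libraries seen for the ATF4 genes.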

How the data were processed

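Per the labels' protocols, DNase-treated total RNA was poly(A)-selected, made into 6 strand-marked libraries (3 control plasmid, 3 RBM25) and sequenced as read pairs. The submitters' processing notes name HISAT2, DESeq2 and the build mRatBN7.2. The version of each, the program that counted reads, the annotation and any use of strand are unstated there, so overlapping genes and near-identical copies are uncertain. The deposited counts are whole, unnormalized reads per gene. The deposited FPKM values were divided by gene length and depth by the authors and rounded to 2 decimals (20395 genes).

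Counts were kept by filterByExpr (minimum count 10), scaled by TMM (factors 0.996 to 1.01) and tested with edgeR 4.0.16 in R 4.3.3: a robust quasi-likelihood fit on group, Benjamini-Hochberg adjustment over all 12882 genes, threshold 0.05. The SE is the size of the log2 fold change over the square root of F, and 95% intervals use the t quantile. Log2 CPM used a prior count of 2. Alternatives were RLE size factors, DESeq2 1.42.0, no count filter, a replicate block, limma-trend (limma 3.58.1) on log2(FPKM + 0.1) for genes with at least 0.5 FPKM in 3 libraries, the same with a pseudocount of 1 or without the filter, and leaving out each library. Fold changes on FPKM are on the log2(value + pseudocount) scale and understate low genes. The fit was tested on simulated counts. Labels do not state separate cultures, so the p-values reflect the spread among 6 libraries, possibly technical.

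The genes and lists were chosen with earlier results of these data known. Named genes were the 10, Rbm25, in each list every called gene and the 2 with the smallest p, and the 3 nearest profiles to Atf4 and Ddit3. Other list genes and markers with values were named after these were seen. Among listed symbols 3 were matched to the table's older ones (Cars, Eprs, Gars).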

Additional observations from a re-analysis of the deposited data

How the results depend on the processing

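The number of the 10 genes called, 0 with all libraries, was also 0 with RLE size factors, DESeq2 and the 3 fits on FPKM values. It was 1 with no filter on low counts and 5 with the replicate block, all lower. Of all genes, 0.27% and 1.38% were called lower in these fits. The number was 0 to 6 over the fits that left out 1 library. The 6 were called without RBM25 replicate 3, where 1.19% of all genes were called lower. Over all genes the calls went from 52 to 205 with no filter, 436 with the replicate block and 3 with limma-trend on log2(FPKM + 0.1). They were 1 with a pseudocount of 1, 5 without the FPKM filter, and 5 to 352 over the fits that left out 1 library. The listed pathway genes called went from 2 to 1 with DESeq2, 4 with the block, 0 in each FPKM fit, and 0 to 12 with 1 library left out. Of all genes, 3.38% were called with the block and 2.69% without RBM25 replicate 3, the fit with the 12. The block shares a number and no stated origin. Same-numbered deviations correlated at 0.23, -0.16 and 0.094 for numbers 1, 2 and 3. Control replicate 1 correlated best with its own number, and control replicates 2 and 3 did not. Each deviation is from the mean of its own group of 3 libraries, so these correlations cannot show whether same-numbered libraries shared a culture or day. With the block Atf5, Asns, Phgdh, Trib3 and Sesn2 passed, and all 52 calls were kept. The median log2 fold change of the 10 genes was -0.11 to -0.049 without 1 library other than RBM25 replicate 3, and -0.15 without that one. Rbm25 kept its direction but did not pass in the FPKM fits (0.30, 0.28 and 0.30 in the order above; limma-trend adjusted p = 0.236, 0.261 and 0.456), and was 0.27 to 0.35 with 1 library left out, not passing without control replicate 2 (0.28).

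Atf3 changed sign with the block (0.0012), in the FPKM fits (4.98e-04, 0.0014 and 4.98e-04), without control replicate 2 (0.067) and without RBM25 replicate 1 (0.10), where Atf4 (0.0093) and Ddit3 (0.012) did too; none of these passed, and over the fits without 1 library the lowest values were -0.087 for Atf3, -0.039 for Atf4 and -0.11 for Ddit3. The other 7 genes stayed negative under all 13 alternatives, Psat1 between -0.079 and -0.041 and Trib3 between -0.28 and -0.088. The cause of these shifts was not tested. With 3 libraries a group an exact permutation test cannot go below p = 0.1.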

Other observations

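Some outputs of the stress response had little mRNA in H9C2 cells. Fgf21, a stress-induced hormone, was at 0.628, 0.731 and 0.614 CPM in controls and at 0.697, 0.663 and 0.751 CPM with RBM25, and Gdf15, another secreted stress signal, had too few reads to be tested, at 0.063 to 0.362 CPM over all 6 libraries. Stc2, a secreted glycoprotein, was tested at a mean of 10.4 CPM in controls and 10.6 CPM with RBM25 (log2 fold change 0.029 ± 0.086 SE, edgeR adjusted p = 0.936).

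The profiles nearest to that of Atf4 over the 6 libraries, among 9078 genes whose log2 CPM averaged 3 or more, were those of Zyg11b, Ptgis and Virma, with a root mean square difference of centred log2 CPM of 0.0081, 0.0095 and 0.010. Psat1 was the nearest of the 10 genes, at rank 327 with 0.028, about as far as a flat profile would be (0.029). For Ddit3 the nearest were Plpbp, Ctf1 and Cbr4 (0.019, 0.020 and 0.022), and Phgdh was at rank 39 with 0.035, where a flat profile would be at 0.081. Atf3 was below that level. With so many genes and 6 libraries, near profiles are a description of these libraries.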
